A study of Mus musculus with 12 samples.

Results

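Genes of the dystrophin-associated complex were followed across 6 histone marks in C2C12 myoblasts and myotubes. They were 7 genes, Dmd, Utrn, Dag1, Sgca, Sgcb, Sgcd and Dtna, of 22350 protein-coding genes in the annotation. They were taken by name, with no threshold on a measured value. Every annotated transcription start site (TSS) of these genes was counted separately, 36 in all, and sites less than 1 kb apart were described together, which gave 27 promoters. Dmd had 10 of these promoters, Sgcd 5, Utrn 4, Sgca 3, Dtna 3, Dag1 1 and Sgcb 1.

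The complex links the actin cytoskeleton of a muscle fibre to the extracellular matrix. Dystrophin, or in its place utrophin, binds actin on the inside and β-dystroglycan at the membrane, α-dystroglycan binds laminin on the outside, the sarcoglycans stabilise the membrane part, and dystrobrevin and the syntrophins bring signalling proteins to it. Loss of dystrophin or of a sarcoglycan causes muscular dystrophy, and utrophin is known as the form that muscle can use where dystrophin is missing. Of the marks, H3K4me3 and H3K27ac are known at active promoters, H3K4me1 and H3K4me2 around promoters and enhancers, H3K36me3 over transcribed gene bodies and H3K27me3 over silenced genes.

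C2C12 is a mouse myoblast line of strain C3H that fuses into myotubes when serum is withdrawn. The untreated myoblasts were near confluence in 10% serum, and the myotubes were taken about 5 days after serum withdrawal and freed of unfused cells with a light trypsin treatment. Both were at passages 15 to 18 of the same line, so the series describes 1 line and not muscle tissue. There was 1 ChIP-seq library for each mark and cell type, 12 in all, without a replicate. Input DNA was not analysed here.

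The libraries held 1858771 to 7033100 reads in myoblasts and 3298694 to 6271899 in myotubes. At the genome mean a promoter window, 1 kb either side of a TSS, held from 1.45 to 5.50 reads. A count of 0 was set against a limit of 3 reads, which stood for 0.545 to 2.06 times the genome mean. Levels are given as reads and as fold over the genome mean of the same library, and were called above it where the exact 95% Poisson interval lay above 1. Ratios are myotube over myoblast reads scaled by total reads with 1 read added to each count, and their intervals are exact binomial intervals of the counts as they are. Intervals cover counting error only, and a ratio compares 2 libraries and not the conditions. A ratio was called at 2-fold and at least 20 reads in both libraries together, and no p-value was computed. The promoters of 5 of 5 muscle cell markers were above the genome mean for H3K4me3 in both cell types, those of myotube markers went from 2 of 7 in myoblasts to 7 of 7 in myotubes, and none of 4 neuron markers was above it. In myoblasts 2 of 4 adipocyte, 2 of 4 endothelium, 1 of 4 blood cell and 1 of 2 satellite cell markers were above it, and in myotubes 1, 0, 0 and 1.

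Promoters with an H3K4me3 peak carried less signal in the myotube libraries, which sets the scale for the promoter ratios that follow. Promoters that overlapped an H3K4me3 peak in myoblasts and also in myotubes, called marked promoters from here on, had median ratios of 0.868 (H3K4me3), 0.624 (H3K4me2), 0.560 (H3K27ac) and 0.972 (H3K4me1), shifts of -0.20, -0.68, -0.84 and -0.04 on the log2 scale. For H3K27ac a ratio of 1 by total reads is therefore higher than that of most promoters tested. At promoters with a peak in neither cell type the median level went from 0.298 to 0.538 times the genome mean for H3K4me2 and from 0 to 0.271 for H3K27ac. It went from 0.922 to 0.775 for H3K4me3 and from 0.592 to 0.611 for H3K4me1. These medians stand for a few reads per window, so they cannot show whether such promoters share the shift. What sets this shift was not tested.

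Most members were marked in both cell types, and the ones that stood apart were Dmd, Sgca and Dtna. Each gene is described by its main promoter, the one with most H3K4me3 reads in both libraries together, so that the H3K4me3 level took part in the choice of the window. H3K4me3 was above the genome mean at 6 of 7 main promoters in myoblasts, where 54.6% of all promoters were, and at 7 of 7 in myotubes, where 54.3% were. The one without it in myoblasts was Dmd. H3K27ac was above the mean at 6 of 7 in myoblasts (51.6% of all promoters) and at 7 of 7 in myotubes (50.6%). H3K4me2 was above it at 6 of 7 in both, against 61.7% and 59.0% of all promoters, and H3K4me1 at 5 of 7 and 6 of 7, against 48.6% and 47.6%. H3K27me3 was above it at 0 of 7 in both cell types, against 18.1% and 12.6% of all promoters.

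**Figure D1:**
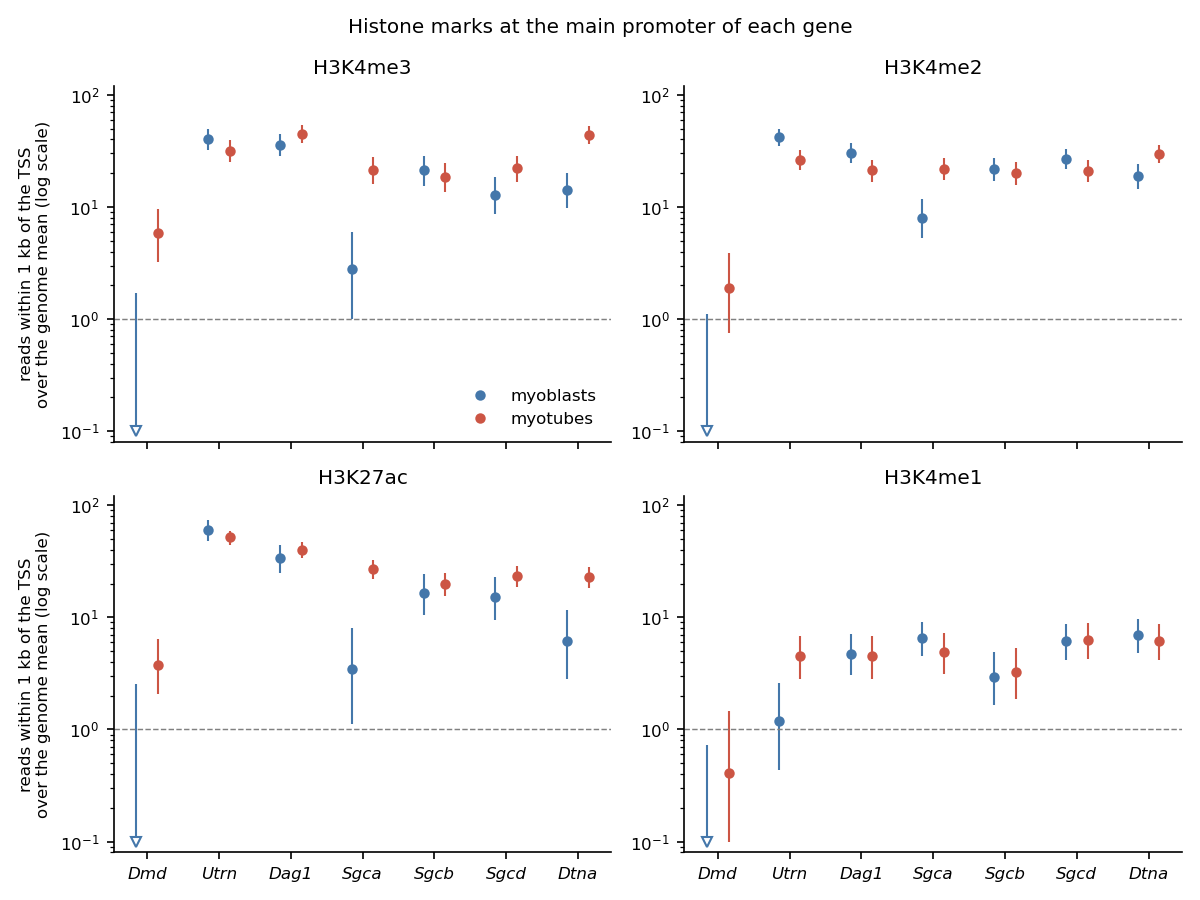
Reads within 1 kb of the main TSS over the genome mean of the library (log axis) for 4 marks in 1 myoblast and 1 myotube library each, with exact 95% Poisson intervals; open triangles are counts of 0. Dmd held 0 reads of all 4 marks in myoblasts and reached 5.82-fold for H3K4me3 in myotubes. Among the genes with at least 20 reads, Sgca and Dtna showed the widest gaps between the cell types for H3K4me3 and H3K27ac.

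Between the libraries, H3K4me3 was at least 2-fold higher in myotubes at 2 of the 6 main promoters with enough reads, Sgca and Dtna, where 3.58% of all promoters tested were. It was 2-fold lower at 0 of 6, where 7.73% were. H3K27ac was higher at the same 2 promoters and lower at 0 of 6, while 5.38% of all promoters were higher and 41.4% lower. Scaled by the median of marked promoters instead of total reads, H3K27ac was 2-fold higher at 5 of 6, all but Utrn, where 15.1% of all promoters tested were. H3K4me2 was higher at 1 of 6, Sgca, and lower at 0 of 6, with 2.45% and 36% of all promoters. H3K4me1 was higher at 1 of 6, Utrn, and lower at 0 of 6, with 8.94% and 18.8% of all promoters. The median ratio over the 7 main promoters was 1.68 for H3K4me3, 0.915 for H3K4me2, 1.49 for H3K27ac and 1.03 for H3K4me1, beside 0.869, 0.594, 0.570 and 0.871 over all promoters tested. Dmd, with fewer than 20 reads of each mark, is in these medians but had no call.

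**Figure D2:**
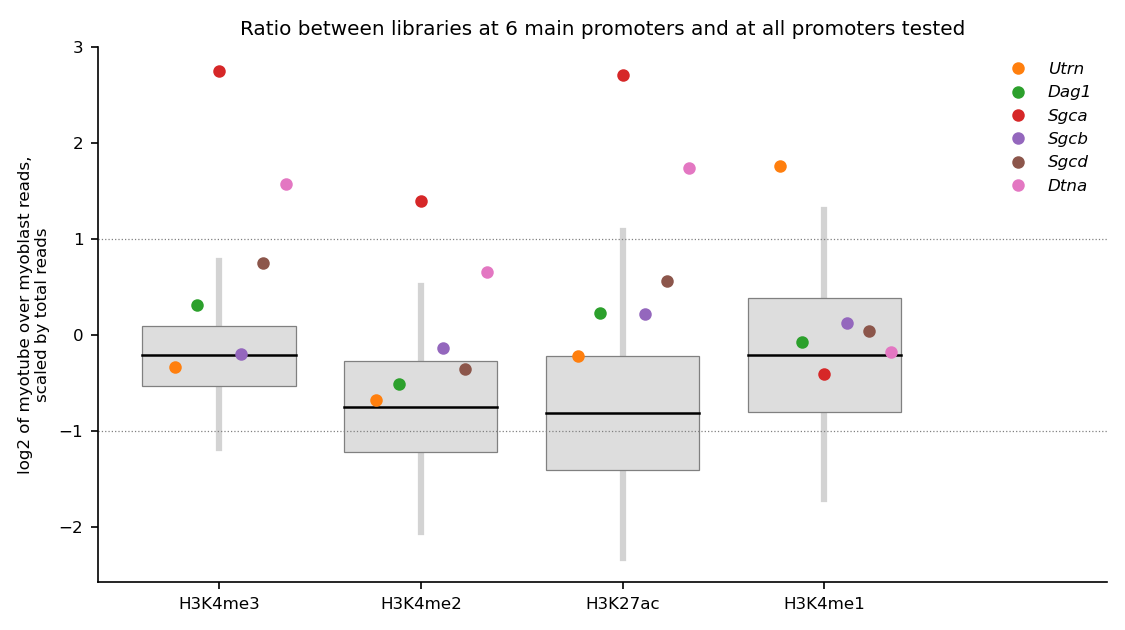
Log2 of myotube over myoblast reads at the main promoter, for 6 genes with at least 20 reads and 4 marks; the boxes hold the middle 50% of all promoters tested, the black line is their median and the grey bar runs from the 5th to the 95th percentile. For H3K27ac all 6 points lie above the median of -0.81, from -0.22 for Utrn to 2.71 for Sgca.

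Dmd encodes dystrophin, the rod that ties actin to dystroglycan. It spans 2257 kb of the X chromosome, chrX:80194209-82451480 on the plus strand of mm9, and its longest reference transcript, Dmd-001, has 79 exons. Its main promoter was the muscle promoter, where Dmd-001 starts at 80194242. The TSS of Dmd-014, at 80194209, lies 33 bp before that start and gave the same number of H3K4me3 reads. The window was set by this TSS because it is the one farther upstream. In myoblasts this window held 0 reads of H3K4me3, H3K4me2, H3K27ac and H3K4me1 and 4 reads of H3K27me3. In myotubes it held 15 reads of H3K4me3, 14 of H3K27ac, 7 of H3K4me2, 2 of H3K4me1 and 1 of H3K27me3. The promoter was thus unmarked at this depth in the myoblast libraries and marked in the myotube ones, with H3K4me3 at 5.82-fold (95% interval 3.25 to 9.59) and H3K27ac at 3.79-fold (2.07 to 6.35). With 3 reads in place of the myoblast 0, H3K4me3 was 4.21-fold and H3K27ac 1.84-fold higher in myotubes. The intervals of the 2 ratios start lower, at 3.02 and 1.30.

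The muscle promoter of Dmd is printed with the promoters of Sgca and Sgcb, below, because it is the one that went from no reads to a peak. Each sequence runs 5′ to 3′ from 250 bases before the TSS to 50 bases after it, read from the mm9 genome. Capitals mark matches to the E-box CANNTG, the GC box GGGCGG on either strand, and MEF2 and CArG motifs by name, which were searched on both strands.
Dmd promoter, chrX:80193959-80194258, plus strand: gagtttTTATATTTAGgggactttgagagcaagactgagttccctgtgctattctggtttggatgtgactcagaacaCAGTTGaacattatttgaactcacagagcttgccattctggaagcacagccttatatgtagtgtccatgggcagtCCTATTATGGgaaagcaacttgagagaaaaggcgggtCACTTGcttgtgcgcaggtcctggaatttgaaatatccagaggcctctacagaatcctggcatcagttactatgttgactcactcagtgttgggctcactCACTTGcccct
The Dmd window held 3 E-boxes, 1 MEF2 match at -244 and 1 CArG match at -98 from the TSS, and no GC box. Among 22345 promoter windows of the same length, 67.7% held an E-box, 2.79% a MEF2 match, 1.34% a CArG match and 45.2% a GC box. The letters TATAAA, read on the minus strand over most of the same bases as the MEF2 match, were present at -245 and were in 12.5% of promoters. The GC content was 45.7%, beside a median of 56.7% over all promoters.

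The other Dmd promoters showed no comparable marking. Shorter dystrophins are known to start from promoters in introns 29, 44, 55 and 62, and the annotation has a TSS in each of them. It calls transcripts from intron 62 protein-coding, and none of those from the other 3. Over the other 9 promoters, these included, no window held more than 2 reads of H3K4me3 in myoblasts and 3 in myotubes. H3K27ac reached 1 and 3 reads, H3K4me2 3 and 2 and H3K4me1 1 and 3. The highest of these is 1.16 times the genome mean, and none was above the mean for any of the 4 marks. H3K27me3 held 0 to 9 reads in myoblasts and 2 to 11 in myotubes, and its highest window, in exon 75 at 82423275, was at 2.80-fold (1.40 to 5.02) in myotubes.

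The marked stretch reached past the promoter into intron 1. The deposited myotube H3K4me3 peaks lay 175 to 1194 and 1537 to 2355 bp after the first TSS, and none of the 6 myoblast lists held a peak in the gene. Over the first 50 kb H3K27ac went from 4 reads in myoblasts to 82 in myotubes, a ratio of 6.53 (3.03 to 30.3). H3K4me1 went from 6 to 83 reads, 12.4 (6.29 to 40.0), H3K4me2 from 7 to 94, 10.7 (5.66 to 31.0), and H3K4me3 from 19 to 79, 3.36 (2.10 to 6.11). The rest of the gene gave 2.28 (1.85 to 2.87) for H3K27ac, 2.07 (1.85 to 2.32) for H3K4me1, 3.83 (3.30 to 4.49) for H3K4me2 and 1.14 (1.05 to 1.24) for H3K4me3. For each of these 4 marks the first step of 45 was the highest in myotubes: for H3K27ac it held 82 reads beside a median of 12 and a highest of 23 over the other 44. In myoblasts the first step lay within the range of the others for each of the 4 marks, with 4 reads of H3K27ac beside 0 to 9.

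Within that stretch a separate rise of H3K27ac lay 6 to 8 kb after the TSS, a window chosen after its values were seen. It held 0 reads in myoblasts and 23 in myotubes, 6.23-fold (3.95 to 9.34), more than the 14 reads at the promoter itself. H3K4me3 there held 0 and 4 reads, and H3K4me1 1 and 8. The myotube H3K27ac list holds no peak in Dmd, and the one H3K4me1 peak of myotubes in the gene lay 13439 to 13527 bp after the TSS.

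**Figure D3:**
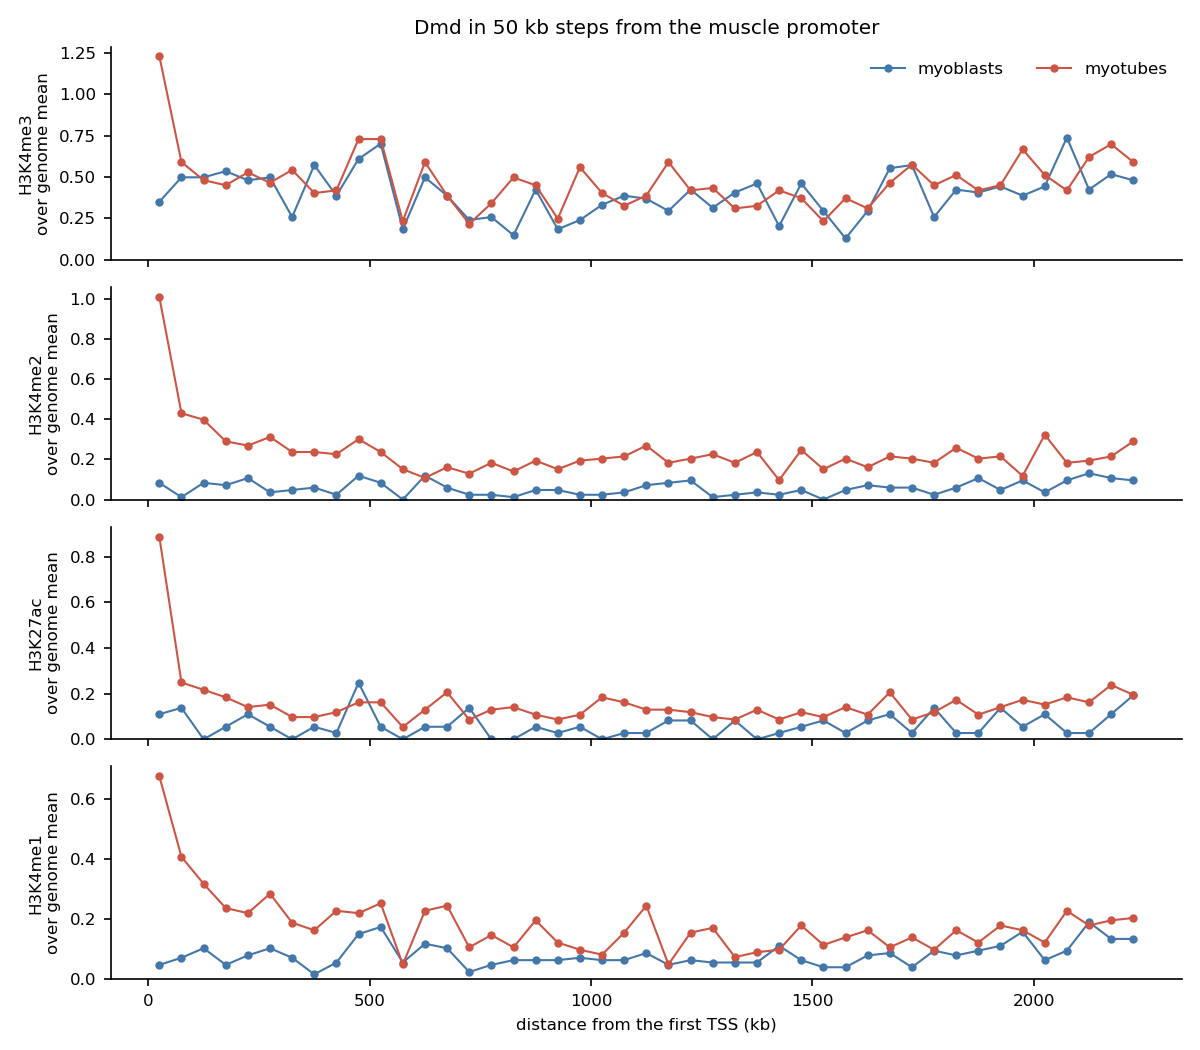
Reads of 4 marks over the genome mean in 45 steps of 50 kb along Dmd, against the distance from the first TSS in kb, in 1 myoblast and 1 myotube library per mark. In myotubes the first step stands above all others for each mark (H3K27ac 0.888 times the genome mean), and in myoblasts it does not.

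Utrn encodes utrophin, the close relative of dystrophin that takes its place at the neuromuscular junction and is found in other tissues. It lies at chr10:12101986-12589163 on the minus strand, 487 kb. Its main promoter, at 12589163, was fully marked in both cell types. H3K4me3 held 87 reads in myoblasts and 82 in myotubes, 40.1-fold (32.1 to 49.5) and 31.8-fold (25.3 to 39.5), and H3K27ac held 87 and 191, 59.8-fold (47.9 to 73.8) and 51.7-fold (44.6 to 59.5). These intervals overlap for both marks. The ratio was 0.793 (0.579 to 1.08) for H3K4me3 and 0.858 (0.667 to 1.13) for H3K27ac, and against the median of marked promoters the latter was 1.53, so its direction turns with the scaling. H3K4me2 was at 141 and 98 reads, a ratio of 0.629 (0.480 to 0.818), which is 1.01 times the median of marked promoters. H3K4me1 was at 6 and 22 reads, the 3.39-fold gain (1.49 to 11.4) counted before.

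In Utrn the H3K4me3 signal lay mostly after the window. From 1 to 3 kb after the TSS, a window again chosen after its values were seen, it held 123 reads in myoblasts and 249 in myotubes, a ratio of 1.70 (1.37 to 2.13), beside a median of 1.21 over all promoters tested there. H3K27ac in the same stretch held 66 and 175 reads, 1.03 (0.782 to 1.41). The 3 other Utrn promoters were weaker for H3K4me3, with 1 to 6 reads in myoblasts and 3 to 6 in myotubes. The one at 12581533 carried H3K36me3 at 54 and 26 reads, 9.82-fold and 7.71-fold, and H3K4me1 at 42 and 41, and the one at 12533337 carried H3K4me1 at 27 and 39 reads.

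Dag1 encodes the precursor of α- and β-dystroglycan, the receptor for laminin. It lies at chr9:108108286-108166255 on the minus strand and had 1 promoter with 3 TSSs, counted at 108166067. H3K4me3 held 78 reads in myoblasts and 116 in myotubes, 36-fold (28.4 to 44.9) and 45.0-fold (37.2 to 53.9), and H3K27ac held 49 and 148, 33.7-fold (24.9 to 44.6) and 40.0-fold (33.8 to 47.0). The ratios were 1.25 (0.931 to 1.69) and 1.17 (0.855 to 1.68), and against the median of marked promoters 1.43 and 2.09. H3K4me2 was at 102 and 79 reads, 0.701 (0.514 to 0.947), and its direction turns to 1.12 against that median. Past the promoter the libraries differed more. From 1 to 3 kb after the TSS, the window described for Utrn, H3K4me3 went from 15 to 144 reads, a ratio of 7.62 (4.74 to 14.8) that was higher than at 96.6% of promoters tested there, and H3K27ac from 2 to 43 reads, 5.77 (2.20 to 72.1).

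The sarcoglycans are single-pass membrane proteins that form a subcomplex beside dystroglycan. Sgca, which encodes α-sarcoglycan and is known for its restriction to striated muscle, gave the highest H3K4me3, H3K4me2 and H3K27ac ratios of the 6 members with enough reads. Sgcb, β-sarcoglycan, gave the H3K27ac ratio nearest to 1 by total reads, by a margin far under the counting error from Utrn and Dag1. Against the median of marked promoters it is 2.08, and Utrn, at 1.53, is the nearest. Their promoters are printed for that contrast.
Sgca promoter, chr11:94834754-94835053, minus strand: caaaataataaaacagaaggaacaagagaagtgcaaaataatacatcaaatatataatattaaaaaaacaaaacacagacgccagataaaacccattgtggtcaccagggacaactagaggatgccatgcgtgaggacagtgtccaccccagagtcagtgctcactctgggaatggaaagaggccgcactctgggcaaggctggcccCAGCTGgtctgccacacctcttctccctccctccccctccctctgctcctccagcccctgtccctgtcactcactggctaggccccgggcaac
Sgcb promoter, chr5:74038934-74039233, minus strand: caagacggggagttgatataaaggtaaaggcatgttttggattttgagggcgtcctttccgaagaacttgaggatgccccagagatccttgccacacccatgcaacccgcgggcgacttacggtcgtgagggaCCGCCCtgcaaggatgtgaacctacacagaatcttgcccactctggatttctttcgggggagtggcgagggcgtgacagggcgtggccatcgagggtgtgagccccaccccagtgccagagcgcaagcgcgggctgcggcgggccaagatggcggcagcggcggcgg
The Sgca window held 1 E-box, of the form CAGCTG, at -43, and no GC box, MEF2 or CArG match. The form CAGCTG was in 15.4% of all promoters. The letters CATTCC of the M-CAT motif were found at -81, on the other strand, as in 12.8% of promoters. The Sgcb window held 1 GC box at -117 and no E-box. Their GC content was 51.7% and 61.7%, and the observed over expected CpG ratio was 0.208 for Sgca and 0.824 for Sgcb, with 0.579 the median of all promoters. Over the 7 members the CpG ratio was 0.129 for Dmd, 0.208 for Sgca, 0.380 for Sgcd, 0.457 for Dtna, 0.824 for Sgcb, 0.990 for Utrn and 1.2 for Dag1. Dmd and Sgca, with the lowest values, were among the members with the widest gaps between the libraries, but Sgcd, with the next value, was within 2-fold and Dtna, with a higher one, was not.

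Sgca lies at chr11:94824105-94837641 on the minus strand. Its main promoter was not the first annotated one but the start of the transcript Sgca-002 at 94834803, 2838 bp further in, at the 3′ end of intron 1 of Sgca-001. There H3K4me3 went from 6 reads in myoblasts to 55 in myotubes, 2.77-fold (1.01 to 6.02) to 21.3-fold (16.1 to 27.8). H3K27ac went from 5 to 99 reads, 3.44-fold (1.12 to 8.02) to 26.8-fold (21.8 to 32.6), and H3K4me2 from 27 to 81, 8.04-fold (5.30 to 11.7) to 21.8-fold (17.3 to 27.1). None of these intervals overlaps between the cell types. The H3K4me3 ratio was 6.73 (3.32 to 21.9) and the H3K27ac ratio 6.56 (3.23 to 24.5), and 98.8% and 98.7% of all promoters tested had a lower one. The H3K4me2 ratio was 2.64 (1.73 to 4.36). H3K4me1 did not follow, with 33 and 24 reads and a ratio of 0.759 (0.425 to 1.31).

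At the first annotated TSS of Sgca, 94837641, the marks were arranged in another way. H3K4me3 held 4 reads in myoblasts and 14 in myotubes, and H3K27ac 8 and 5. H3K4me1 was at 15 and 45 reads, 2.96-fold (1.66 to 4.88) and 9.17-fold (6.69 to 12.3), a ratio of 2.97 (1.69 to 5.98). H3K27me3 was at 11 and 2 reads, and its myoblast level was called above the genome mean with the lower limit of its interval at that mean. The windows of these promoters do not overlap. The myotube H3K4me3 peak of the deposited list covered 2213 to 4416 bp after the first TSS and the myotube H3K27ac peak 2647 to 3778 bp, both over the inner promoter and not the outer one. The annotation places Hils1 inside Sgca, on the other strand, and reads of a pair of overlapping genes cannot be told apart.

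Sgcb lies at chr5:74023988-74038983 on the minus strand, with its promoter at 74038983. H3K4me3 held 46 reads in myoblasts and 48 in myotubes, 21.2-fold (15.5 to 28.3) and 18.6-fold (13.7 to 24.7). H3K27ac held 24 and 73, 16.5-fold (10.6 to 24.6) and 19.7-fold (15.5 to 24.8), and H3K4me2 73 and 74. The ratios were 0.877 (0.573 to 1.34), 1.16 (0.745 to 1.98) and 0.915 (0.653 to 1.28), with overlapping levels throughout. Against the median of marked promoters they were 1.01, 2.08 and 1.47, so the directions for H3K4me3 and H3K4me2 turn with the scaling.

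Sgcd encodes δ-sarcoglycan, and its annotated gene, chr11:46709755-47802471 on the minus strand, covers 1093 kb. The marked promoter was at 47193024, 609447 bp after the first annotated TSS, at exon 1 of Sgcd-002. H3K4me3 held 28 reads in myoblasts and 57 in myotubes, 12.9-fold (8.58 to 18.7) and 22.1-fold (16.7 to 28.6), and H3K27ac 22 and 86, 15.1-fold (9.48 to 22.9) and 23.3-fold (18.6 to 28.7). The ratios of 1.68 (1.07 to 2.80) and 1.49 (0.954 to 2.58) were under 2-fold, and 94.8% and 91.3% of all promoters tested had a lower one. Against the median of marked promoters they were 1.94 and 2.66. The intervals of the levels overlapped, while that of the H3K4me3 ratio lay above 1. From 1 to 3 kb after the TSS, the window described for Utrn, H3K27ac went from 13 to 120 reads, 3.40 (2.04 to 7.02). That ratio was higher than at 85.8% of promoters tested there. The 4 other promoters held at most 4 reads of H3K4me3 in myoblasts and 6 in myotubes and at most 3 reads of H3K27ac. One of them, at 47392467, was above the genome mean for H3K27me3 in myoblasts, with 15 reads, 2.73-fold (1.53 to 4.51), and 6 in myotubes.

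Dtna encodes α-dystrobrevin, the dystrophin relative that binds syntrophins at the inner face of the membrane. It lies on chromosome 18, from 23573916 to 23818215 on the plus strand. At its first promoter, 23573916, H3K4me3 went from 31 reads in myoblasts to 113 in myotubes, 14.3-fold (9.71 to 20.3) to 43.8-fold (36.1 to 52.7). H3K27ac went from 9 to 84 reads, 6.19-fold (2.83 to 11.7) to 22.7-fold (18.1 to 28.1), and again neither pair of intervals overlaps. The ratios were 3.00 (2.05 to 4.72) and 3.34 (1.84 to 8.31), higher than at 97.7% and 97.1% of all promoters tested. H3K4me2 was at 63 and 111 reads, 1.58 (1.16 to 2.20), and H3K4me1 at 35 and 30 reads. The signal also widened from 1 to 3 kb after the TSS, the window described for Utrn. There H3K4me3 held 0 reads in myoblasts and 53 in myotubes. With 3 reads in place of the 0 this was 14.9-fold, and the interval of the ratio starts at 11.7.

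A promoter within Dtna, 82175 bp further in at 23656091, was marked in both cell types. There H3K4me3 held 52 reads in myoblasts and 73 in myotubes, a ratio of 1.17 (0.816 to 1.72), and H3K27ac 18 and 63, 1.33 (0.805 to 2.47). In myoblasts the inner promoter had more H3K4me3 than the outer one, 52 reads beside 31, and in myotubes the outer one had more, 113 beside 73. The intervals of the levels overlapped between the promoters in myoblasts and did not in myotubes. The ratio interval of the outer promoter, 2.05 to 4.72, lies above that of the inner one. The last promoter, at 23760932, held 1 to 4 reads of H3K4me3 and carried H3K36me3 at 32 and 18 reads, 5.82-fold and 5.34-fold.

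**Figure D4:**
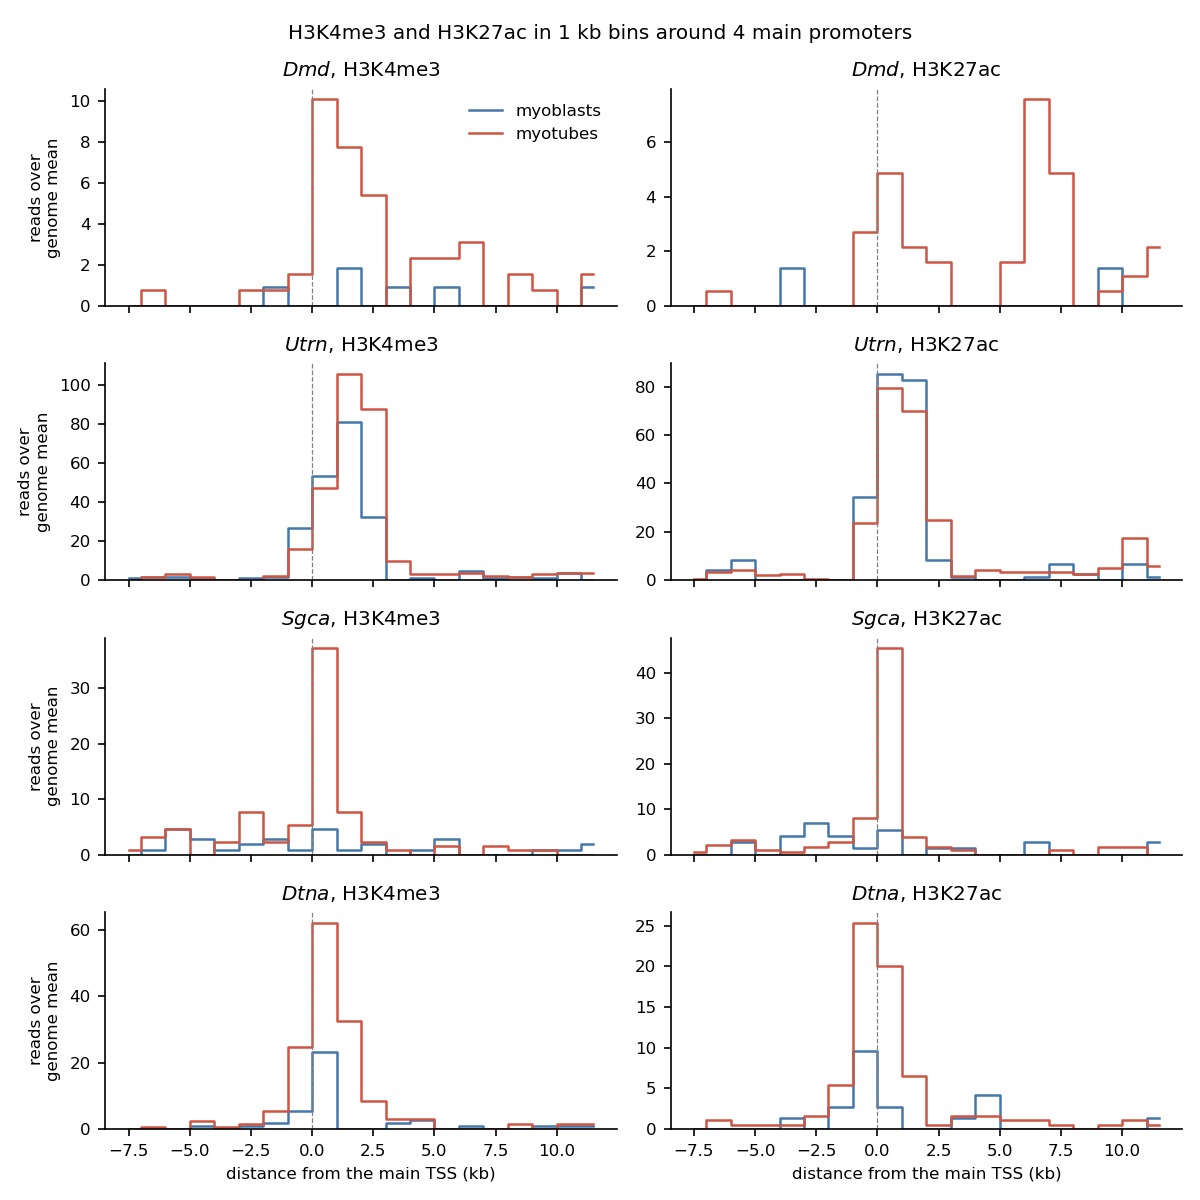
Reads of H3K4me3 (left) and H3K27ac (right) over the genome mean in bins of 1 kb, against the distance from the main TSS in kb along the direction of transcription, for Dmd, Utrn, Sgca and Dtna in 1 myoblast and 1 myotube library per mark; each panel has its own scale. Dmd shows the separate H3K27ac rise at 6 to 8 kb in myotubes, and Utrn H3K4me3 is highest at 1 to 3 kb, where it held 123 and 249 reads.

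The deposited peak lists were read against the same promoters. A peak of H3K4me3 overlapped 6 of 7 main promoters in myoblasts, all but Dmd, and 7 of 7 in myotubes, against 48.9% and 49.1% of all promoters. The myotube peak at the Dmd promoter had a score of 80.33 and the myoblast peak at Sgca 54.76. Both would be lost at a score of 100. The myotube H3K27ac list overlapped 6 of 7, again all but Dmd, against 42.6%, and the myotube H3K27me3 list 0 of 7, against 1.40%. For myoblasts the list deposited with the H3K27ac sample overlapped 0 of 7 (4.94% of all promoters), and the list deposited with the H3K27me3 sample overlapped 5 of 7 (46.3%). The names of these 2 lists disagree with the samples that hold them. Reads of the myoblast H3K27ac library were at 0.588 times the genome mean inside the first list and at 36.4 times inside the second, and those of H3K27me3 at 6.76 and 0.804 times. Exchanged, the lists would give H3K27ac peaks at Utrn, Dag1, Sgcb, Sgcd and Dtna and none at Dmd or Sgca.

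H3K36me3 over the gene bodies, the gene without 1 kb either side of its TSSs, separated the members in another order. It was at least 1.5 times the genome mean in 5 of 7 bodies in both cell types, all but Dmd and Sgcd, where 51.8% of all bodies were in myoblasts and 52.9% in myotubes. Between the libraries it was at least 1.5-fold higher in myotubes in 1 of 7, Sgca, against 18.7% of all bodies, and lower in 0 of 7, against 18.0%. Sgca went from 39 to 96 reads, 1.67-fold (1.19 to 2.28) to 6.69-fold (5.42 to 8.17), a ratio of 3.95 (2.74 to 5.98).

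Dmd had the lowest body. It held 976 reads in myoblasts and 550 in myotubes, 0.159-fold (0.149 to 0.169) and 0.146-fold (0.134 to 0.158), a ratio of 0.920 (0.826 to 1.02). Of all bodies 8.07% were lower in myoblasts and 10.2% in myotubes, and of the 767 on X 24.0% and 30.5% were. In the 50 kb where the promoter marks appeared, H3K36me3 went from 13 to 22 reads, 2.68 (1.33 to 5.96), to 0.261 times the genome mean. Unlike the promoter marks, this step did not stand out in myotubes. The other 44 steps held 9 to 37 reads in myoblasts and 4 to 27 in myotubes. The myotube promoter marks thus stood beside a gene body far under the mean. H3K27me3 over the Dmd body was near the mean, at 0.779-fold and 0.857-fold.

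Of the other bodies, Utrn was at 4.0-fold (3.89 to 4.11) and 4.48-fold (4.34 to 4.63), Dag1 at 3.93-fold (3.63 to 4.26) and 5.69-fold (5.22 to 6.19), Sgcb at 5.89-fold (5.14 to 6.71) and 6.97-fold (5.94 to 8.12), and Dtna at 3.20-fold (3.06 to 3.34) and 2.81-fold (2.65 to 2.98). Their ratios were 1.12, 1.45, 1.19 and 0.879, all within 1.5-fold. Sgcd was at 0.358-fold (0.337 to 0.380) and 0.404-fold (0.375 to 0.434). Its signal was not even along the gene. With the gene cut into 10 equal parts, the first 5 were at 0.114 to 0.174 times the genome mean in myotubes and the next 4, of which the first holds the marked promoter, at 0.543 to 0.874. In Dtna H3K36me3 was higher toward the 3′ end, from 1.67-fold in the first of 10 parts to 4.81-fold in the last in myoblasts and from 1.14-fold to 5.15-fold in myotubes. In Dag1 the last part was the highest, at 8.22-fold and 15.0-fold.

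**Figure D5:**
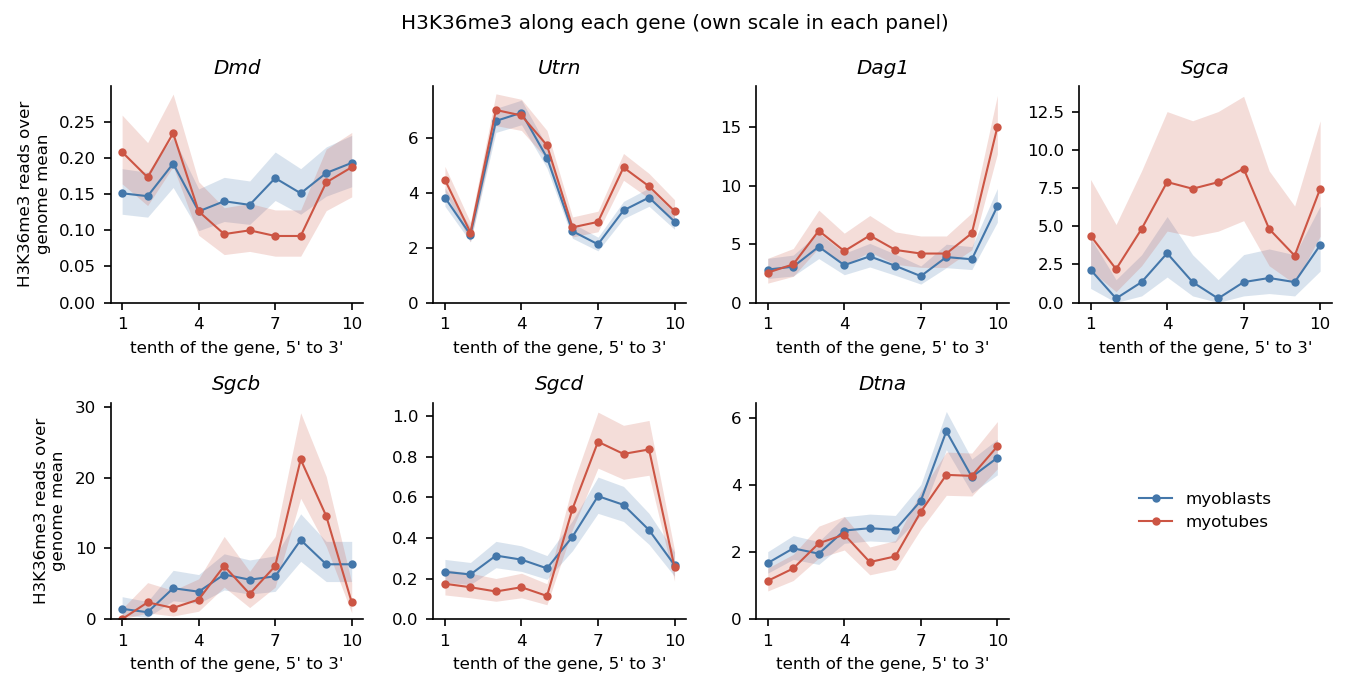
H3K36me3 reads over the genome mean in 10 equal parts of each gene from 5′ to 3′, whole gene, in 1 myoblast and 1 myotube library, with exact 95% Poisson intervals as shading; each panel has its own scale. Sgca is higher in myotubes in all 10 parts, on counts whose intervals overlap in some of them, Dtna is higher toward its 3′ end, and no part of Dmd is above 0.234 times the genome mean.

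The other marks over the bodies were mostly higher in the myotube libraries. H3K4me2 and H3K4me1 had ratios above 1 in 7 of 7 bodies, where 61.6% and 51.9% of all bodies tested did, with medians of 2.90 and 2.21 beside 1.23 and 1.03. H3K4me3 was above 1 in 7 of 7 (49.5% of all), with a median of 1.34 beside 0.996, and H3K27ac in 6 of 7 (47.3%), with a median of 1.74 beside 0.961. H3K27me3, the mark of silenced genes, was also above 1 in 6 of 7 (66.9%), all but Sgcd, with a median of 1.39 beside 1.16. The H3K4me2 ratios ran from 1.86 in Utrn to 4.15 in Dmd. In Dmd the level went from 0.0562 to 0.234 times the genome mean, under the mean in both libraries. In Dag1, with a ratio of 3.90, it went from 1.39 to 5.43. In 10 kb windows outside peaks, scaled myotube over myoblast reads gave 1.55 for H3K4me2 and 1.24 for H3K4me1. They gave 1.02 for H3K27ac and 0.968 for H3K4me3. The H3K4me2 medians at promoters without a peak, given before, moved the same way as the H3K4me2 ratios but stand for a few reads per window. The part of these levels away from peaks in the body ratios was not tested.

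Regions of H3K4me2 away from the promoters lay inside 4 of the 7 genes. Merging the H3K4me2 peaks of both cell types and keeping those over 1 kb from every TSS gave 48 regions, 21 in Utrn, 12 in Dtna, 8 in Dag1 and 7 in Sgcd. Dmd, Sgca and Sgcb had 0. Per 100 kb of gene Dag1 had 13.8, Dtna 4.91, Utrn 4.31 and Sgcd 0.641. The regions were in both lists in 11 cases, in the myotube list alone in 35 and in the myoblast list alone in 2. Since H3K4me2 chose them this is a description. Genome-wide the myotube H3K4me2 list was also the longer one, with 57043 peaks beside 37991. The same split over the regions of all genes is not given here, so these counts show no trait of the members. H3K27ac had enough reads in 11 regions. It was at least 2-fold higher in myotubes in 5, 4 of them in Utrn and 1 in Sgcd, against 35.5% of all such regions, and lower in 0, against 20.5%. H3K4me1 was higher in 3 and lower in 2 of 24, against 9.80% and 31.2%.

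The sums that follow are a description: most regions were listed in myotubes alone, a choice that favours more active marks there, and 37 of 48 had too few H3K27ac reads for a ratio of their own. Summed over the regions of a gene, H3K27ac went from 149 to 658 reads in Utrn, a ratio of 1.73 (1.45 to 2.09), and from 33 to 161 in Dag1, 1.87 (1.31 to 2.88). It went from 9 to 81 reads in Sgcd, 3.23 (1.78 to 8.02), and from 14 to 118 in Dtna, 3.12 (1.90 to 6.25). H3K4me1 in the same regions was at 0.930 (0.823 to 1.05) in Utrn and 1.06 (0.811 to 1.39) in Dag1, 1.42 (0.882 to 2.35) in Sgcd and 2.44 (1.83 to 3.33) in Dtna. Beside these sums, single regions of all genes with enough reads had a median ratio of 1.24 for H3K27ac and 0.688 for H3K4me1. In Utrn the region with most H3K27ac in myotubes, chr10:12542548-12544463, held 24 reads in myoblasts and 166 in myotubes, 2.63 (1.77 to 4.37). A neighbouring one, chr10:12540434-12542233, held 51 and 140, 1.07 (0.778 to 1.52).

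The wider pathway was read from a list of 34 genes: 13 further members of the complex, 17 genes that glycosylate α-dystroglycan and 4 of its ligands in the matrix. At their promoters H3K4me3 was at least 2-fold higher in myotubes in 2 genes and lower in 3, with 24 within 2-fold and 5 with too few reads, beside 3.58% and 7.73% of all promoters tested. H3K27ac was higher in 3 and lower in 13, with 11 within 2-fold and 7 with too few reads, beside 5.38% and 41.4%. H3K36me3 over their bodies was at least 1.5-fold higher in 7 and lower in 4, with 20 within and 3 not tested, beside 18.7% and 18.0%. The H3K27ac median ratio of the list, 0.546, lay close to the 0.570 of all promoters. In the complex group Cav3, encoding the caveolin of muscle, was higher for both promoter marks and the body. Cav3 went from 3 to 210 reads of H3K27ac, 20.7 (9.29 to 135), and from 0 to 83 reads of H3K4me3.

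Other genes of the list were lower. Dtnb, β-dystrobrevin, had 49 and 27 reads of H3K4me3, 0.471 (0.279 to 0.756), and 16 and 9 of H3K27ac, 0.231 (0.0862 to 0.532), where its relative Dtna was higher for both. Sspn, sarcospan, had 152 and 118 reads of H3K27ac, 0.306 (0.238 to 0.391), and Sgce, ε-sarcoglycan, which non-muscle cells also make, 27 and 19, 0.281 (0.145 to 0.517). Of the 17 glycosylation genes H3K27ac was lower in 10, higher in 0 and within 2-fold in 5, and 2 had too few reads, where 41.4% of all promoters tested were lower and 5.38% higher. The median ratio was 0.438 beside 0.570 over all promoters, and H3K4me3 was within 2-fold in 16. Dolk, the kinase that makes dolichol phosphate, had 81 and 35 reads of H3K27ac, 0.173 (0.111 to 0.256), and Dpm3, of dolichol-phosphate mannose synthase, 18 and 15, 0.331 (0.154 to 0.689). Among the ligands Lama2, the laminin chain of muscle basement membrane, was higher, with 11 and 89 reads, 2.95 (1.70 to 6.61).

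The promoters most like each member were found by the Euclidean distance over 12 libraries of log2 reads over the genome mean. They were Lrtm1 and 4930525M21Rik for Dmd (distances 2.61 and 2.79), Fbxw11 and Socs5 for Utrn (1.59 for both) and U2af1 and Hspa1b for Dag1 (1.41 and 1.46). For Sgca they were Ip6k3 and Tspan32 (1.71 and 1.89), for Sgcb Ifngr1 and Alg6 (1.06 and 1.27), for Sgcd Gm1661 and Tmem53 (1.38 and 1.41) and for Dtna Etl4 and Wbp2 (1.52 and 1.64). The median distance of all promoters from a member lay between 6.12, for Sgcb, and 10.16, for Dmd.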

How the data were processed

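The sequenced reads and MACS peaks of 12 ChIP-seq libraries were used. Reads of 34 bp were aligned by the authors to mm9, for myoblasts with Mosaik 1.0.1384 keeping unique alignments, and were deposited as lines with a count of 1 each. What was merged into each file and the MACS settings are not given in the sources used here. Each deposited peak carries a MACS score of 50.0 or more.

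Reads on chromosomes 1 to 19 and X (2555806925 bases other than N) were extended to 150 bp, and midpoints were counted. Depth was 1858771 to 7033100 reads, which sets the width of every interval. Genes and TSSs are from GENCODE M1 on the same build. Gene bodies of at least 1 kb gave the background of levels, and those with at least 20 reads the background of ratios. Calls needed 2-fold at promoters and 1.5-fold in bodies. Of the pathway list, genes past a limit were named, at most the 8 with the largest ratios. One of these is not reported here. The members and lists were chosen with earlier results of these data known. Alternatives varied the window, the extension, duplicates, the TSS, the scaling, the added reads, the limits and the peak score. The steps were tested on simulated data. Versions were matplotlib 3.10.9, scipy 1.17.1, pandas 2.3.3, numpy 2.4.6 and Python 3.11.15.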

Additional observations from a re-analysis of the deposited data

How the results depend on the processing

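With 1 library per mark and cell type there is no replicate error, and no ratio separates the condition from the library. No paired analysis was possible because each group holds 1 library. Of 94 recomputed counts of members, 86 stayed within 1.5 times of the reported count and 8 did not. With the TSS farthest upstream, H3K27ac and H3K4me3 were each 2-fold higher at 1 promoter, Dtna; the H3K27ac ratio of Sgca was then 0.262 on 13 reads in all. Scaled by the median of marked promoters, H3K27ac was higher at 5 promoters, all but Dmd and Utrn. At a limit of 3-fold, H3K4me3 was higher at 1, Sgca. Counted over the 3′ part of the gene alone, or scaled by 10 kb windows outside peaks, H3K36me3 was higher in 2 bodies, Dag1 and Sgca. With the myoblast H3K27 lists exchanged, 5 main promoters had an H3K27ac peak and 0 an H3K27me3 peak. Except at the TSS farthest upstream, the ratios of Sgca and Dtna stayed above 2 for both marks under the alternatives run at the 2-fold limit. A promoter count near 3 reads cannot be told from 0.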
